A study of Pinus pinaster with 30 samples.

Results

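Transcripts named as seed storage and late embryogenesis abundant (LEA) proteins were followed in developing zygotic embryos of maritime pine, *Pinus pinaster*. They were 6 of the 26496 spots of the PtGen2 cDNA array. They were chosen by names in the study's annotation, with earlier results of these data known. A pair of spots carried the name glutelin type-A, 8.4.21.5 (unigene27434) and 4.1.2.22 (unigene78501), both matched to *A. thaliana* locus AT2G28680. Spots 1.4.19.24 (unigene2845) and 4.4.22.23 (unigene4962) were matched to AT5G60530, which is named LEA-related. Spot 10.2.14.10 (unigene1290) was matched to AT4G23930, a LEA hydroxyproline-rich glycoprotein, and spot 7.2.15.5 (unigene8352) was named late embryogenesis abundant protein with no locus. All 6 spots were tested. Other spots of the same names or loci were not among the 6 and are described further below. The glutelin transcripts were highest at the first harvest and fell, while the 4 LEA transcripts were lowest there and rose, at different times.

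Seed storage proteins such as glutelins and legumins belong to the cupin superfamily. They are laid down in protein vacuoles as the seed matures and are broken down at germination to feed the seedling, and in seed plants their transcripts are known to accumulate in the later part of embryogenesis. LEA proteins are a loose assembly of mostly hydrophilic proteins first described in maturing seeds. Many of them are induced by abscisic acid and are associated with the tolerance of drying. In conifers the embryo develops inside the megagametophyte, which is itself the main store of the seed.

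The study collected cones from open-pollinated trees at 5 harvests, named by the days since the first, and dissected the dominant embryo from each seed. Day0 held early embryos of stages T0, T1 and T2, Day5 pre-cotyledonary embryos (T3 and T4), Day11 early cotyledonary embryos (T4B), Day15 cotyledonary embryos (T5) and Day25 mature embryos (T7). No treatment was applied. Each day had 3 biological samples, pools of 60 embryos per the labels, made in some cases from several RNA extractions, and every pool was run on 2 arrays as technical replicates. Cones came from several trees at each date, and which trees a pool holds is not given, so that p-values measure the spread between pools of one orchard and season. Embryo RNA carried Cy3 and a reference pool of RNA from all days carried Cy5 on every array, without a dye swap. Values are log2 ratios of embryo over reference pool, so that 0 is the level in the pool and a difference of 1 is a doubling. Levels of different spots cannot be set against each other on this scale, only their differences between days.

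Between 10860 and 18676 spots per array (41.0% to 70.5%) carried both quality marks of the authors, and only these values were tested. The median Cy5 background of an array lay between 64 and 213 on Day0, Day5 and Day11, and between 88 and 404 on Day15 and Day25. With a normexp background correction the calls of the 6 spots were unchanged, and the part of this background in the results was not tested otherwise. The 6 spots were well above their local background in both channels on every array (at least 5.59-fold, spot 4.4.22.23) and none was at the top of the scale. Spot 8.4.21.5 had a kept value in 10 of 15 samples, 1.4.19.24 and 4.4.22.23 in 14, and the others in 15. The array holds loblolly pine clones from root and needle libraries, so that each spot reads pine transcripts across a species difference and may also bind close relatives of its clone. In pools of whole embryos, fewer cells of a type and less RNA per cell cannot be told apart. The contribution of megagametophyte RNA was not tested. Genome positions and clone sequences of these spots were not used here.

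**Figure D1:**
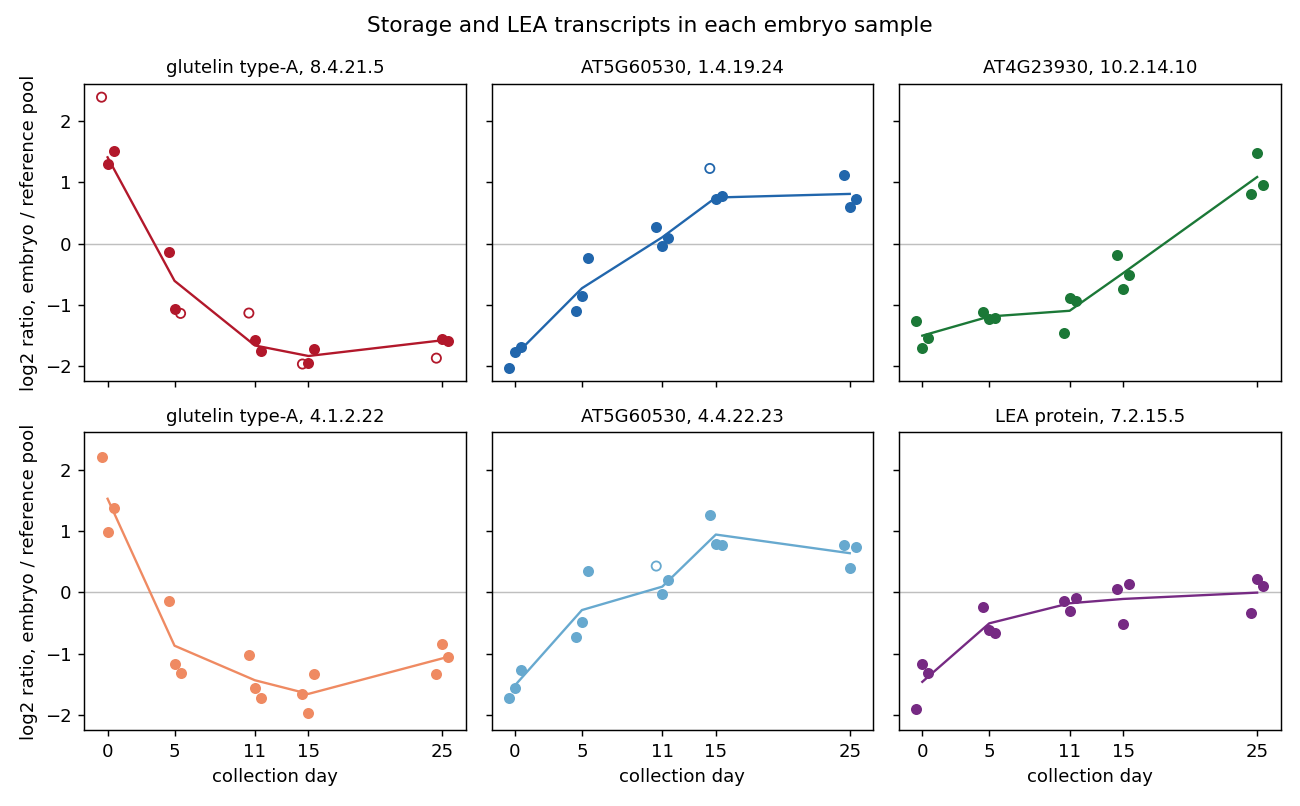
Log2 ratio of embryo over reference pool (vertical axis) of the 6 transcripts at each collection day (horizontal axis), with 1 point per biological sample and a line through the day means of kept values. Open points are samples without a kept value, shown as measured. The glutelin spots fall from above 0.99 on Day0 to below 0 on every later day, and the LEA spots start below -1.1.

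The glutelin transcripts fell most between early and pre-cotyledonary embryos. At spot 4.1.2.22 the Day0 samples stood at 2.21, 0.99 and 1.39, and the Day5 samples at -0.13, -1.16 and -1.31. Every Day0 sample was above the reference pool and every Day5 sample below it, with replicate 1 the highest of its day on both days. The fall was 2.40 on the log2 scale, a 5.27-fold decrease (log2 difference -2.40, SE 0.32, n = 3 and 3, adjusted p = 0.000531). It was the 9th largest fall in this interval among 14513 tested spots.

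From Day5 on, the level of 4.1.2.22 moved little. The samples read -1.03, -1.56 and -1.72 on Day11, -1.65, -1.97 and -1.34 on Day15, and -1.33, -0.84 and -1.06 on Day25. The day means were 1.53 ± 0.62, -0.87 ± 0.64, -1.43 ± 0.36, -1.65 ± 0.32 and -1.08 ± 0.25 (SD, n = 3) from Day0 to Day25. In the order of levels, Day0 stood apart, and no neighbouring pair among Day5, Day25, Day11 and Day15 passed the test (adjusted p = 0.636, 0.452 and 0.998). The Day25 samples all lay above the Day15 samples, with the nearest pair at -1.33 and -1.34, and the difference of 0.58 (SE 0.32) gave an adjusted p of 0.287. Before normalization, the embryo channel of this spot read 19928 to 49871 on the 6 arrays of Day0 and 6731 to 16052 on those of Day25. The reference channel read 7582 to 16830 and 8697 to 24100 on the same arrays, and the embryo channel was the brighter one on all 6 arrays of Day0 and the dimmer one on 5 of the 6 of Day25.

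The other glutelin spot, 8.4.21.5, followed a similar course with fewer kept values. Its kept samples read 1.31 and 1.51 on Day0, -0.14 and -1.07 on Day5, -1.57 and -1.75 on Day11, -1.94 and -1.72 on Day15, and -1.56 and -1.59 on Day25. Again Day0 was the one day above the reference pool. The difference from Day0 to Day5 was -2.02 (SE 0.26, n = 2 and 2, adjusted p = 0.00176), the 22nd largest fall of all tested spots. The next interval gave -1.05 (adjusted p = 0.0716), a value that passed without Day0 replicate 1 (-1.05, adjusted p = 0.0489) or Day5 replicate 2 (-1.52, adjusted p = 0.0349). By Day25 the level was below that of Day5 by 0.97 (log2 difference -0.97, SE 0.26, adjusted p = 0.0130), where 41.3% of all tested spots changed from Day5 to Day25. With all 15 samples unfiltered this difference was -0.76 and missed the threshold (adjusted p = 0.0502). Without the quality filter, the sample missing on Day0, replicate 1, read 2.39 against 1.28 and 1.58, the highest of its day as at 4.1.2.22. The unfiltered day means were 1.75, -0.81, -1.50, -1.81 and -1.57.

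The LEA-related transcripts of AT5G60530 rose from the first interval and levelled off in cotyledonary embryos. Spot 1.4.19.24 read -2.03, -1.76 and -1.68 on Day0 and -1.09, -0.86 and -0.23 on Day5. It then read 0.27, -0.04 and 0.09 on Day11, 0.72 and 0.78 on Day15, and 1.12, 0.59 and 0.72 on Day25. No sample of Day0, Day5 or Day11 overlapped with those of another of these 3 days, whereas the 2 kept Day15 samples lay inside the range of Day25. Without the quality filter the mean was 0.90 ± 0.28 on Day15 and 0.81 ± 0.23 on Day25 (SD, n = 3). The change was 1.10 from Day0 to Day5 (SE 0.20, adjusted p = 0.00484) and 0.06 from Day15 to Day25 (SE 0.22, adjusted p = 0.906). The interval between them gave 0.83 (SE 0.20, adjusted p = 0.0531), which passed without Day0 replicate 1, Day5 replicate 3 or Day25 replicate 1 (0.83 to 1.08, adjusted p = 0.0379 to 0.0490).

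Spot 4.4.22.23 of the same locus read -1.73, -1.55 and -1.27 on Day0 and -0.73, -0.48 and 0.35 on Day5. It reached -0.02 and 0.21 on Day11, 1.27, 0.79 and 0.78 on Day15, and 0.77, 0.40 and 0.75 on Day25. Day5 replicate 3, the highest Day5 sample at both spots, was above both kept samples of Day11. The change was 1.23 from Day0 to Day5 (SE 0.24, adjusted p = 0.00686) and -0.30 from Day15 to Day25 (SE 0.24, adjusted p = 0.470). Between Day5 and Day15 it rose by 1.23 again (SE 0.24, adjusted p = 0.00600), where 12.4% of all tested spots passed. When the ratios were scaled between arrays, the first rise of both spots missed the threshold, at 0.63 (adjusted p = 0.123) for 1.4.19.24 and 0.92 (adjusted p = 0.0546) for 4.4.22.23.

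The LEA hydroxyproline-rich glycoprotein transcript of AT4G23930, spot 10.2.14.10, rose in the last interval. It read -1.26, -1.71 and -1.53 on Day0, -1.12, -1.23 and -1.22 on Day5, and -1.46, -0.89 and -0.94 on Day11. The Day5 samples lay just above those of Day0, and the Day11 samples overlapped with both. They then read -0.19, -0.73 and -0.52 on Day15 and 0.81, 1.48 and 0.96 on Day25, and each of these days lay above all days before it. The rise from Day15 to Day25 was 1.57 (SE 0.20, n = 3 and 3, adjusted p = 0.000502), a 2.96-fold increase and the 61st largest of all tested spots in that interval. The first interval gave 0.31 (SE 0.20, adjusted p = 0.367). The level was already higher on Day15 than on Day0, by 1.02 (SE 0.20, adjusted p = 0.00130, with 30.8% of all tested spots called), and Day11 to Day15 gave 0.62 (adjusted p = 0.714).

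The transcript named late embryogenesis abundant protein, spot 7.2.15.5, rose early and by less. It read -1.90, -1.17 and -1.31 on Day0 and -0.23, -0.61 and -0.67 on Day5. The later samples lay between -0.31 and -0.09 on Day11, between -0.52 and 0.14 on Day15, and between -0.34 and 0.22 on Day25, 3 ranges that overlapped. The first rise was 0.95 (SE 0.22, n = 3 and 3, adjusted p = 0.0146). It missed the threshold without Day0 replicate 1, the lowest sample (0.73, adjusted p = 0.0677), and without Day5 replicate 1, the highest of its day (0.82, adjusted p = 0.0639). The next interval gave 0.33 (SE 0.22, adjusted p = 0.427), and the differences after Day11 were 0.07 and 0.10.

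**Figure D2:**
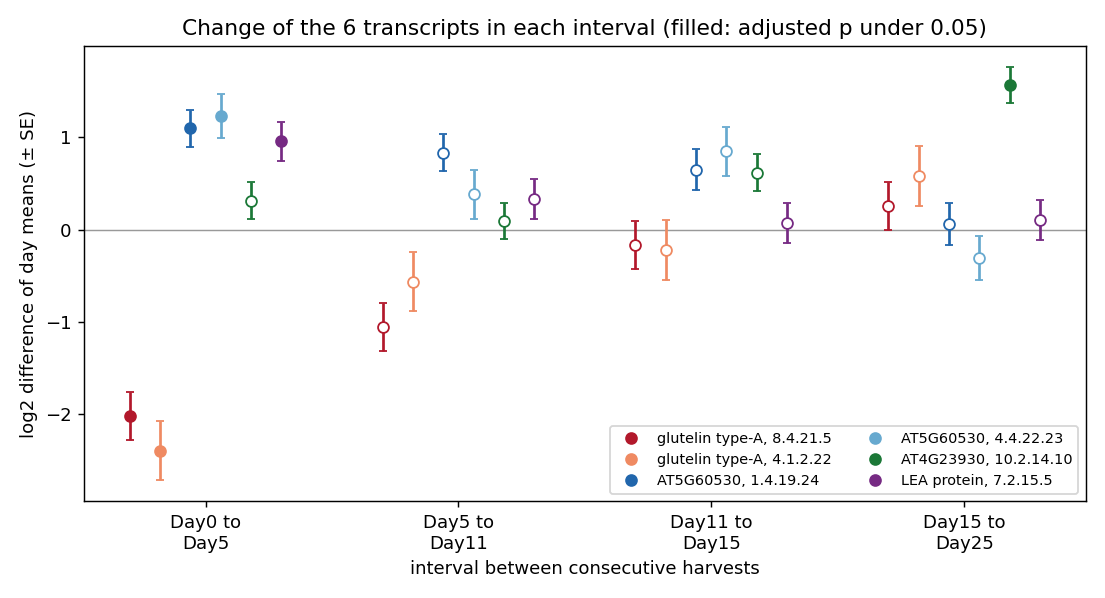
Log2 difference of day means (vertical axis, bars show the SE of the fit) for the 6 transcripts in each interval between consecutive harvests (horizontal axis). Filled points passed an adjusted p of 0.05. They are 5 of the 6 spots from Day0 to Day5 and 10.2.14.10 from Day15 to Day25.

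Over consecutive harvests, 5 of the 6 spots changed from Day0 to Day5, 3 upwards and 2 downwards, where 7.7% of all tested spots changed (2.94% rose and 4.76% fell). None passed from Day5 to Day11, where 1.58% of spots did, although 8.4.21.5 and 1.4.19.24 had unadjusted p of 0.00213 and 0.000929. None passed from Day11 to Day15, where 0% of spots passed by limma and 857 had an unadjusted p under 0.05. Among these 857 were 4.4.22.23 (0.85, adjusted p = 0.688), 10.2.14.10 (0.62, adjusted p = 0.714) and 1.4.19.24 (0.65, adjusted p = 0.745). From Day15 to Day25 1 of the 6 rose, where 9.03% of all spots changed, 5.53% upwards and 3.5% downwards. The share of all spots called in an interval depended on single samples. From Day0 to Day5 it was 3.33% without Day5 replicate 2, 3.57% without Day0 replicate 1 and 4.81% without Day5 replicate 1, but 10.6% without Day0 replicate 2. From Day5 to Day11 it was 0.0482% to 0.303% without any one Day11 sample or Day5 replicate 2 or 3, 0.937% without Day0 replicate 3 and 0.958% without Day25 replicate 2, and 2.87% to 4.76% without Day25 replicate 1, Day0 replicate 1 or Day5 replicate 1. From Day15 to Day25 it was 3.49% to 4.66% without Day25 replicate 2 or Day15 replicate 2 or 3, but 11.4% without Day0 replicate 1. The intervals span 5, 6, 4 and 10 days, so that their sizes are not rates. Counts among the 6 are of spots and not of independent genes. The glutelin spots share a locus, and so do 1.4.19.24 and 4.4.22.23.

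The difference between the first and the last interval was tested in the same fit, a test added after the values had been seen. The change from Day0 to Day5 minus that from Day15 to Day25 was -1.25 for 10.2.14.10 (SE 0.28, adjusted p = 0.0134), the one LEA spot with the larger rise at the end. It was 1.53 for 4.4.22.23 (SE 0.34, adjusted p = 0.0131) and 1.04 for 1.4.19.24 (SE 0.30, adjusted p = 0.0444), both with the larger rise at the start. For 7.2.15.5 it was 0.85 (SE 0.30, adjusted p = 0.0907), which did not pass, although it did without Day15 replicate 2 (1.06, adjusted p = 0.0450) and with cyclic loess on log2 ratios (0.63, adjusted p = 0.0463). For the glutelin spots it was -2.98 at 4.1.2.22 (adjusted p = 0.00162) and -2.27 at 8.4.21.5 (adjusted p = 0.00521). In all tested spots this difference passed in 9.27%. The value of 1.4.19.24 missed the threshold without Day0 replicate 1 or 3, Day5 replicate 2 or 3, any Day11 sample, Day15 replicate 2 or 3, or Day25 replicate 2 or 3 (0.79 to 1.11, adjusted p = 0.0532 to 0.114). It also missed it with scaled ratios (0.83, adjusted p = 0.138) and with a replicate block (1.03, adjusted p = 0.0640).

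From early to mature embryos all 6 spots changed, where 47.2% of all tested spots did (23.6% rose and 23.6% fell). The glutelins fell, with differences of -2.99 (SE 0.26, adjusted p = 8.37e-06) at 8.4.21.5 and -2.60 (SE 0.32, adjusted p = 1.35e-05) at 4.1.2.22. The LEA spots rose by 2.64 (SE 0.20, adjusted p = 3.39e-07) at 1.4.19.24, 2.59 (SE 0.20, adjusted p = 2.37e-07) at 10.2.14.10, 2.16 (SE 0.24, adjusted p = 7.00e-06) at 4.4.22.23 and 1.46 (SE 0.22, adjusted p = 6.67e-05) at 7.2.15.5. The median absolute difference over all tested spots was 0.40. By Day11 the change from Day0 had passed for 5 of the 6, with 10.2.14.10 at 0.41 (adjusted p = 0.153), while 24.8% of all spots passed. All 6 also passed as a quadratic time course, with R-squared from 0.79 (7.2.15.5) to 0.952 (8.4.21.5), where 28% of spots passed. The value of 8.4.21.5 rests on its 10 kept samples, and unfiltered it was 0.888. The study's tables name spots mostly because they changed in these samples, so that these counts are not independent evidence of change.

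Spots of the same unigene or locus were compared sample by sample. Across the samples in which both were kept, r was 0.973 between the glutelin members (n = 10 samples) and 0.981 between 1.4.19.24 and 4.4.22.23 (n = 13). These points share the arrays, the reference pool and the large differences between days, and the r values are a description. Another glutelin spot of unigene27434, 10.3.23.10, had too few kept values to be tested. Without the filter it read 2.09, 1.43 and 1.48 on Day0, 0.10, -0.70 and -0.61 on Day5, and -2.01, -1.20 and -1.26 on Day25. Its difference from Day0 to Day5 was -2.07 (adjusted p = 0.000504 over all spots unfiltered), close to those of both members. Day0 replicate 1 was the highest Day0 sample at all 3 glutelin spots.

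A second spot of unigene4962, 2.4.9.7, rose by 0.93 from Day0 to Day5 (adjusted p = 0.0259) and by 2.71 from Day0 to Day25 (adjusted p = 2.64e-06). The first of these calls was lost with scaled ratios (0.72, adjusted p = 0.0638), with a replicate block (0.85, adjusted p = 0.0524), and without Day0 replicate 2, Day5 replicate 1 or Day5 replicate 3 (0.59 to 0.87, adjusted p = 0.0764 to 0.155). Its Day5 replicate 3 read -0.76, inside the range of the other Day5 samples (-1.23 and -0.69), where 4.4.22.23 read 0.35 and 1.4.19.24 -0.23. The fourth spot of AT5G60530, 8.3.18.1 (unigene24217), was not tested, and its unfiltered differences were 1.51 from Day0 to Day5 and 3.28 from Day0 to Day25. The high Day5 replicate 3 of the members was thus not seen at the other spots of the locus.

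**Figure D3:**
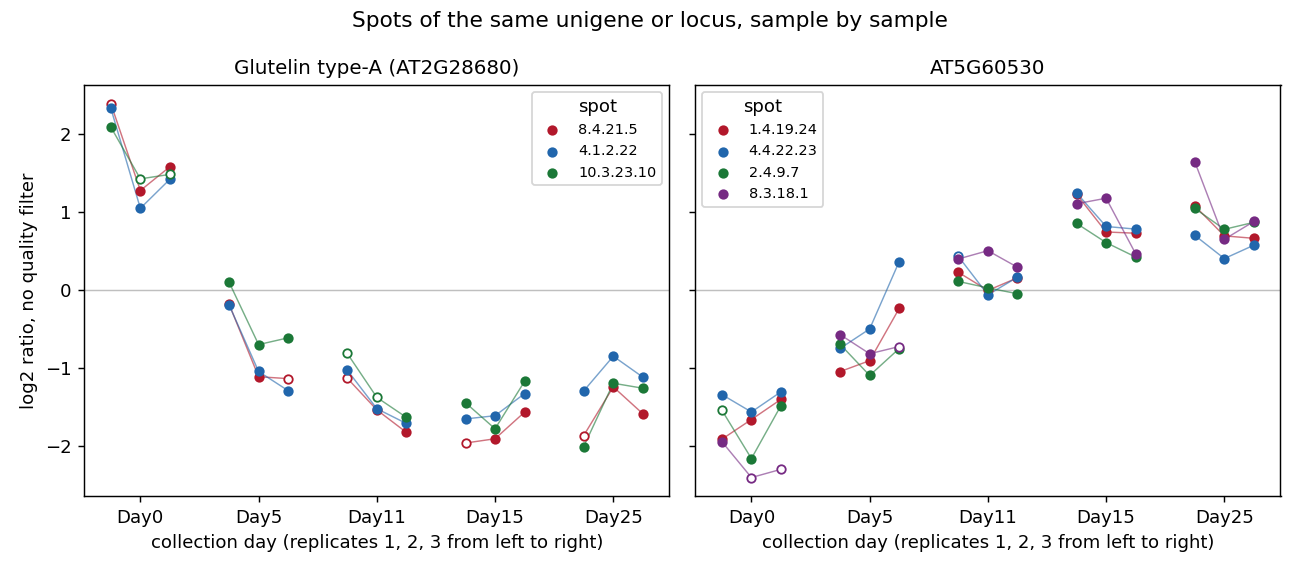
Unfiltered log2 ratio of embryo over reference pool (vertical axis) in each of the 15 samples, grouped by collection day (horizontal axis), for 3 glutelin spots and 4 spots of AT5G60530. Filled points had a kept value and open points did not. The glutelin spots share the high Day0 replicate 1, and Day5 replicate 3 is high at 4.4.22.23 and 1.4.19.24 but not at 2.4.9.7 and 8.3.18.1.

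The named spots most like each member were found by Pearson's r of sample values among 854 to 913 spots that shared at least 12 samples. Since the spots and samples share large differences between days, r measures likeness of the time course alone. For the glutelin 4.1.2.22 they were a TPR repeat protein (1.4.10.2, r = 0.977, n = 14), a spot named caffeoyl 3-O-methyltransferase (12.4.23.13, r = 0.975, n = 12) and an MSF1-domain protein (12.2.6.10, r = 0.974, n = 14). For 1.4.19.24 the nearest was an aspartic proteinase of the nepenthesin type (11.3.21.14, r = 0.974, n = 12), and for 4.4.22.23 a leucine-rich repeat receptor-like kinase (10.3.18.17, r = 0.975, n = 14). Each of these spots was also among the 3 nearest of the other member. The other near spots were named lipid binding for 1.4.19.24 (3.1.14.9, r = 0.960, n = 14) and peroxidase for 4.4.22.23 (12.4.13.21, r = 0.955, n = 13).

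The late riser 10.2.14.10 was closest to a tonoplast intrinsic protein, a water channel of the vacuole membrane (11.3.19.23, r = 0.976, n = 13). Next came a chloroplast small heat shock protein (1.4.14.12, r = 0.975, n = 14) and a ROP-family small GTPase (3.1.8.21, r = 0.973, n = 14). For 7.2.15.5 they were a glycolipid transfer protein (2.2.4.3, r = 0.970, n = 15), embryo sac development arrest 6 (5.3.18.15, r = 0.958, n = 12) and a receptor-like kinase (7.2.17.14, r = 0.953, n = 15). Spot 8.4.21.5 had too few kept samples for this comparison.

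Other LEA spots named in the study's tables mostly rose as well, but not all did. Of 14 spots, 8 were tested, and from Day0 to Day25 5 of them rose, 2 fell and 1 did not pass, where 23.6% of all tested spots rose and 23.6% fell, with a median difference of 0.82 against -0.02 over all tested spots. A LEA-related transcript of AT3G19430, spot 6.3.19.24, rose by 2.96 (SE 0.19, adjusted p = 3.16e-07), from a mean of -1.85 on Day0 through -1.10, -0.18 and 0.20 to 1.11 on Day25. Spot 5.1.11.10, named late embryogenesis abundant protein, rose by 2.37 (adjusted p = 1.49e-06), with means of -1.04, -1.35, -0.57, 0.24 and 1.34. Its rise from Day15 to Day25 was 1.10 (adjusted p = 0.00312), and its first interval minus the last was -1.41 (adjusted p = 0.0101), as for 10.2.14.10 and unlike 4.4.22.23. Spot 2.4.13.3, matched both to a leucine-rich repeat protein and to LEA14, went the other way. It fell from 1.34 on Day0 to -0.88 on Day25 (log2 difference -2.22, adjusted p = 7.61e-06). The other tested spot that fell was NHL10 of the hydroxyproline-rich family (8.4.16.6, log2 difference -1.83, adjusted p = 8.79e-05). Over all 14 spots unfiltered, 10 rose and 3 fell, and unfiltered 50.7% of the 26496 spots changed. These counts are of spots and not of genes. Among the spots that rose, 10.1.21.18 and 2.4.18.16, both tested, share unigene21077. Likewise 5.1.11.10 and 7.1.15.15 share unigene16070, and 10.3.22.12 and 6.3.5.9 share unigene19654.

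Dehydrins, LEA proteins known for their induction by drought and cold, ran opposite to the LEA members. Both tested spots fell from Day0 to Day25, dehydrin 1 (6.1.19.8) with -1.23 (adjusted p = 2.83e-05) and dehydrin 2 (6.3.16.8) with -1.13 (adjusted p = 8.85e-05), where 23.6% of all tested spots fell. The day means of dehydrin 1 were 0.12, -0.21, -0.96, -0.95 and -1.11. All 4 spots of the list fell when unfiltered values were used, the other dehydrin 2 spot (10.4.19.12) by the most, with -2.26. Unfiltered, 50.7% of the 26496 spots changed from Day0 to Day25. The other cupins were a pirin-like protein (1.1.7.8), which fell (-1.15, adjusted p = 0.00130), and a germin-like protein (9.3.21.6), which was not tested and gave -0.34 unfiltered.

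Among transcripts tied to desiccation and seed filling, the metallothionein-like EMB30 (1.4.22.13) rose by 3.08 from Day0 to Day25 (SE 0.43, adjusted p = 5.30e-05). Metallothioneins are small cysteine-rich proteins that bind metals. On Day25 its samples read -0.43, 1.24 and 1.29, and all Day0 samples lay between -2.46 and -2.21. The last interval alone gave 2.20 (adjusted p = 0.0115), with kept Day15 samples as far apart as -2.38 and -0.63, and it did not pass without Day15 replicate 2 (1.33, adjusted p = 0.145) or without Day25 replicate 2 (1.93, adjusted p = 0.0580). Galactinol synthase starts the synthesis of raffinose-type sugars. Of its 3 tested spots, 6.1.18.1 (1.75) and 1.1.11.2 (1.52, matched also to a heat shock protein) rose and 3.1.10.2 fell (-1.06, adjusted p = 0.000593). Spots 6.1.18.1 and 1.1.11.2 share unigene27429. From Day0 to Day25 23.6% of all tested spots rose and 23.6% fell. Over all 6 galactinol synthase spots unfiltered, 2 rose and 4 fell, with 8.4.14.19 at -1.93, where 50.7% of the 26496 spots changed. A gamma vacuolar processing enzyme, of the protease family that matures storage proteins, rose by 0.52 (4.2.5.4, adjusted p = 0.0222), a call lost without Day0 replicate 1 (0.41, adjusted p = 0.0827) or Day25 replicate 3 (0.48, adjusted p = 0.0627), and with 1 loess per array (0.45, adjusted p = 0.0560). The other spot of this enzyme, 12.2.3.17, was not tested and gave 0.05 unfiltered (adjusted p = 0.899).

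The abscisic acid transcripts fell where 10.2.14.10 rose. All 3 tested spots fell from Day15 to Day25, where 3.5% of all tested spots fell. The receptor PYL8 (3.4.9.1) changed by -1.30 (adjusted p = 0.00205), the neoxanthin synthase ABA4 (10.2.5.1), an enzyme of abscisic acid synthesis, by -1.12 (adjusted p = 0.0248), and the receptor PYR1 (3.4.15.11) by -0.98 (adjusted p = 0.0119). At 3.4.9.1 the means were -0.58 on Day0, 0.36 on Day11, 0.40 on Day15 and -0.90 on Day25, and the other PYL8 spots (4.2.5.23 and 5.3.6.21, not tested) were also higher on Day11 and Day15 than on Day25. When the ratios were scaled, or Day15 replicate 2 or 3 was left out, PYL8 alone passed, and ABA4 also missed the threshold without Day25 replicate 1 or 2 (adjusted p = 0.0529 and 0.0826). From Day0 to Day25 PYR1 (-1.69) and ABA4 (-1.32) fell, and PYL8 gave -0.32 (adjusted p = 0.177), or -0.49 without Day0 replicate 1 (adjusted p = 0.0403). These lists too were drawn from tables of changed spots.

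**Figure D4:**
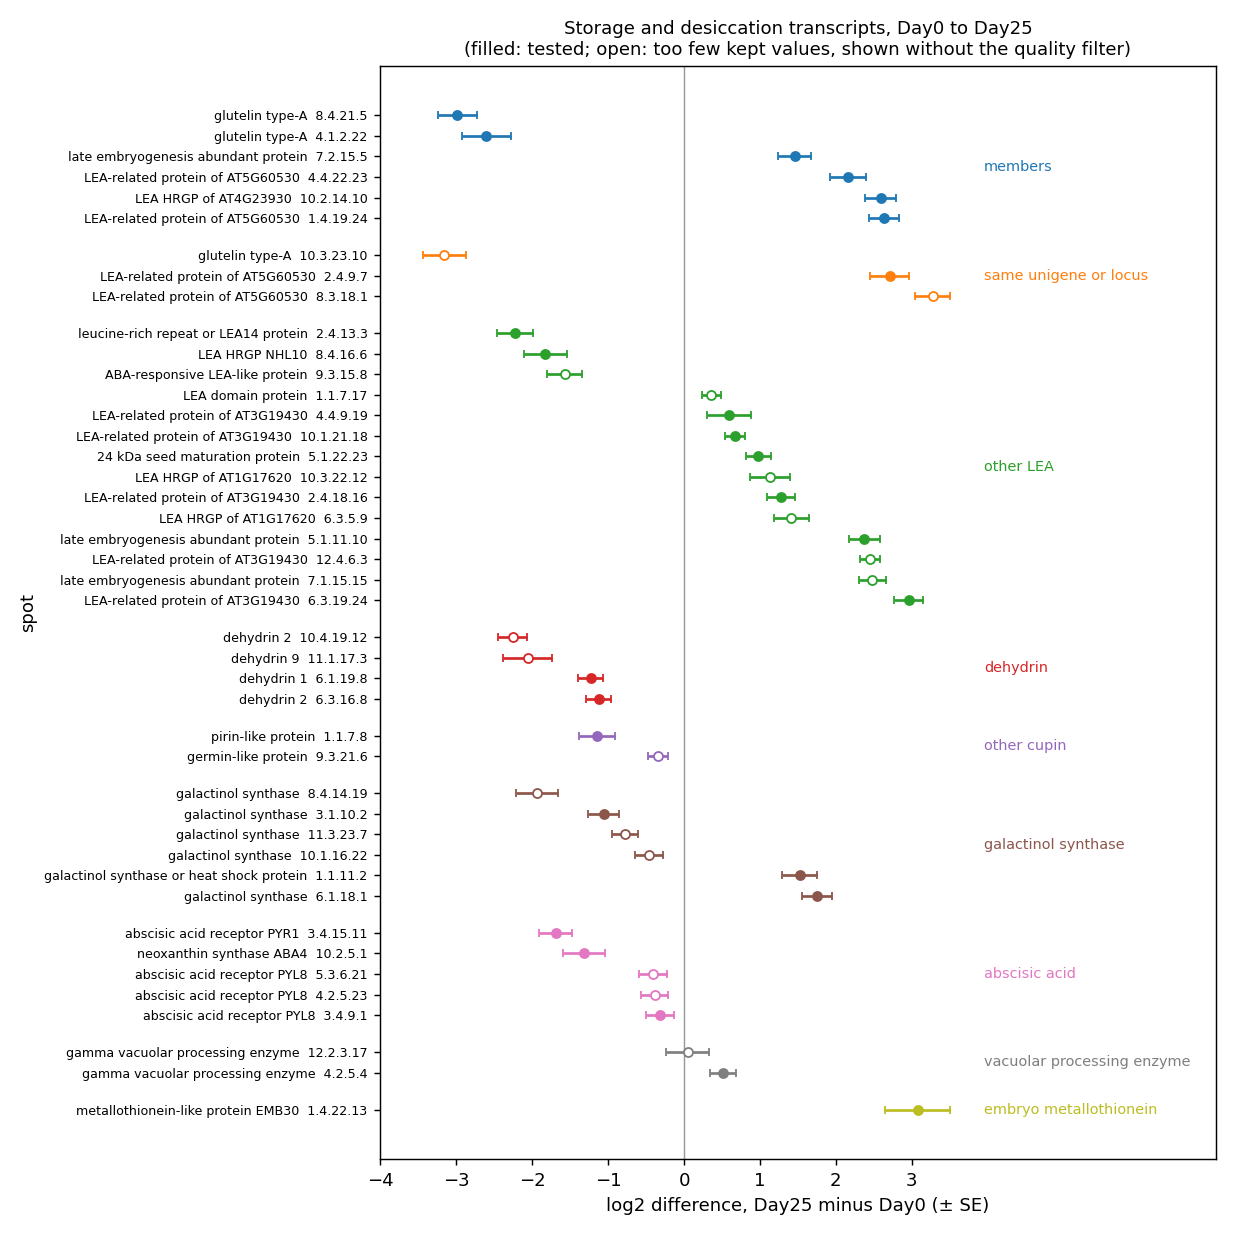
Log2 difference between Day25 and Day0 (horizontal axis, bars show the SE of the fit) of the 6 members and 37 related spots, grouped by list (vertical axis). Filled points were tested, and open points had too few kept values and are drawn from unfiltered ratios. The glutelin and dehydrin spots lie below 0, and the LEA spots on both sides.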

How the data were processed

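Embryo RNA (Cy3) and a reference pool (Cy5) were hybridized on 30 arrays. Intensities are the spot and local background brightness of each channel that the authors measured with a scanner and ImaGene and deposited without normalization. The deposited files also hold the authors' log2 ratios, made with print-tip and cyclic loess in limma, and 2 quality marks per spot (1 for kept), a category value that the authors set; how they were set is not given in the sources used here.

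Log2 ratios were recomputed from the intensities (R 4.3.3, limma 3.58.1; statmod 1.5.0 for the technical correlation) with no background correction, print-tip loess (span 0.3, 4 iterations, 48 print tips) and cyclic loess of both channels (3 iterations). Values without both marks were left out, and the 2 technical arrays were averaged. The ratios correlated with the authors' at 0.993 to 0.999 per array. A spot needed values in 2 samples on every day. Day means of 15 samples were fitted in limma, and p-values were adjusted over 14513 spots (Benjamini-Hochberg, 0.05). The time course call was a quadratic fit on the day number at a false discovery rate of 0.01 with R-squared of 0.7 or more. A replicate is a pool of embryos, and the number of arrays limits the precision. The script was tested on simulated data.

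Names came from the study's tables, some of them available here only in part. The members and lists were chosen with earlier results of these data known. Named besides the members were all spots of their unigene or locus, up to 3 spots per related list by the size of the difference between Day0 and Day25, and the 3 named spots most correlated with each member. NHL10 and the untested spots that are named fall outside this rule and were chosen after their values were seen. Alternatives covered background correction, loess, scaling, filters, the authors' ratios, technical correlation, a replicate block, and each sample left out.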

Additional observations from a re-analysis of the deposited data

How the results depend on the processing

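The 6 members kept their direction in every called comparison under the alternatives run. From Day5 to Day11, where none had passed, 1 passed with no between-array step, with no filter on quality marks, without the dimmest spots and with the authors' log2 ratios. In this interval 2 passed with cyclic loess on log2 ratios, with scaled ratios and with the 30 arrays and a technical correlation of 0.660, and 0 to 2 with single samples left out. Spot 1.4.19.24 was among the calls of each of these settings except samples left out. Over all spots the share called was 1.65% with no between-array step, 1.66% with the authors' ratios and 1.63% with cyclic loess on ratios. It was 7.81% with scaled ratios, 5.9% with the technical correlation, 3.23% with no filter and 2.52% without the dimmest spots. With a replicate block it was 2.98%, and with normexp or with 1 loess per array 1.04%, against 1.58% in the main fit. With single samples left out it was 0.0482% to 4.76%. From Day15 to Day25 the share was 5.57% with scaled ratios, against 9.03%. Of the calls from Day5 to Day11, 72.9% were higher on Day11 with cyclic loess on ratios, against 56.3%. From Day0 to Day5, where 5 passed, 3 passed with scaled ratios (1 rose and 2 fell) and 4 to 5 with single samples left out. Over all spots the share called in this interval was 6.65% with scaled ratios and 3.33% to 10.6% with single samples left out. With values required in all 3 samples on every day, 6331 spots and 3 members were tested. Of these 3, 2 passed from Day0 to Day5, 3 from Day0 to Day25, 3 in the time course and 2 in the difference between the first and last intervals. Among the 6331 spots 8.7% passed from Day0 to Day5, 47.8% from Day0 to Day25 and 11.6% in that difference. With samples left out, 6 passed from Day0 to Day25 and in the time course, 1 from Day15 to Day25, 0 from Day11 to Day15, and 4 to 5 in the difference between intervals. Over all spots the share called was then 39.8% to 48% from Day0 to Day25 and 3.49% to 11.4% from Day15 to Day25. In the difference between intervals it was 4.76% to 12.2%. In the main fit 28% of all tested spots passed the time course, and its share under the alternatives is not given here.

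Same-numbered samples of different days did not clearly pair. The correlations of their deviations from the day means ran from -0.371 to 0.477 (median 0.103, 30 pairs). For samples of different number they ran from -0.469 to 0.575 (median -0.035, 60 pairs), and 5 of 15 samples correlated best with their own number. With a replicate block 5 members passed from Day0 to Day5, 0 from Day5 to Day11, 1 from Day15 to Day25, 6 from Day0 to Day25, and 4 instead of 5 in the difference between intervals, where 1.4.19.24 was lost (1.03, adjusted p = 0.0640). In the same order, the shares of all spots called in this fit were 7.43%, 2.98%, 8.67%, 46.9% and 9.05%. Standard errors of this fit are approximate where values are missing.

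Values for 8.4.21.5 rest on 2 samples a day. A dye effect of the same size on all arrays cannot be told apart from the level of a spot, but it cancels between days. Dye effects that change with intensity or day were not tested, and no dyes were swapped. The members were at least 5.59-fold above background, and the quality marks set how many samples entered each mean.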
